A study of Mus musculus with 12 samples.

Results

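Foxp3 and the receptor genes that mark regulatory T cells (Treg) were followed across 3 groups of splenic Treg on Affymetrix mouse gene arrays. The genes were Foxp3, the interleukin-2 receptor chains Il2ra, Il2rb and Il2rg, the inhibitory receptor Ctla4, the tumour necrosis factor (TNF) receptors Tnfrsf18, Tnfrsf4, Tnfrsf9 and Tnfrsf1b, and the actin-capping gene Capg. They were chosen by symbol, and every probe set annotated to a single gene with that symbol was used. Of the 10 symbols, 9 had 1 such probe set each, among 22180 genes measured by 23521 single-gene probe sets. Il2rg was not analysed here because no probe set carried its symbol alone. Further probe sets that Foxp3 shares with Ccdc22 and Ppp1r3f, and Tnfrsf18 with Gm16008, were not used because their signal cannot be assigned to a single gene.

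All arrays came from DEREG mice, in which Foxp3 regulatory sequence drives a fusion of the diphtheria toxin receptor and a fluorescent protein, so that diphtheria toxin (DTx) kills the cells that make Foxp3. All mice were sensitised and challenged with the allergen ovalbumin. The iTreg group received intravenous immunoglobulin (IVIg), pooled human antibody, at 2 g per kg after DTx at 40 ng per g body weight had depleted the Treg already present. The e_iTreg group received the same IVIg without DTx, and its labels describe a mixture of Treg present before treatment and Treg induced by it. The eTreg group received human serum albumin at 2 g per kg, a control protein, in place of IVIg and, by the series design, no DTx. IVIg and DTx change together between iTreg and eTreg, so their parts cannot be told apart in that comparison. By the series design iTreg and e_iTreg differ in DTx, and e_iTreg and eTreg in the protein given. No group with DTx and albumin was analysed here, so DTx without IVIg is not seen. Each group had 4 biological replicates. The labels name flow sorting but no sort marker, and they do not give the age of the mice or say whether animals were pooled.

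Foxp3 is the transcription factor that defines the Treg lineage, and its loss in mice causes fatal autoimmunity. It drives high levels of CD25, the alpha chain of the interleukin-2 receptor encoded by Il2ra. CD25 joins the beta chain (Il2rb) and the common gamma chain (Il2rg) in a high-affinity receptor that signals through Jak1 and Jak3 to Stat5, and Stat5 in turn supports Foxp3 transcription. CTLA-4 takes the ligands CD80 and CD86 away from the costimulatory receptor CD28. GITR (Tnfrsf18), OX40 (Tnfrsf4), 4-1BB (Tnfrsf9) and TNFR2 (Tnfrsf1b) are costimulatory TNF receptors found at high levels on Treg, and they signal through TRAF adaptors. CapG, the product of Capg, caps the fast-growing ends of actin filaments and belongs to the gelsolin family.

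The start regions of the genes at either end of these results, Foxp3 and Capg, are shown first, because Foxp3 was the lowest relative to eTreg and Capg the highest. The windows hold 250 bases before and 50 bases after an annotated start, from RefSeq on the GRCm38.p6 assembly, written 5′ to 3′ on the gene's strand. Capitals mark matches to the motifs searched. Foxp3 has 2 annotated starts, at chrX:7579426-7579725 and chrX:7580233-7580532 on the plus strand, and Capg has 1 at chr6:72549397-72549696 on the plus strand.
Foxp3, start 1: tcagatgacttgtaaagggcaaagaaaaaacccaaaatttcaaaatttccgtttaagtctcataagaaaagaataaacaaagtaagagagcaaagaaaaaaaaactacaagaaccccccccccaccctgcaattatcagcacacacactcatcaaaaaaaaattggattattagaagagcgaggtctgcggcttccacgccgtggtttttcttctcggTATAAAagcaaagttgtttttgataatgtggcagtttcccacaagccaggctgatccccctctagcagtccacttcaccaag
Foxp3, start 2: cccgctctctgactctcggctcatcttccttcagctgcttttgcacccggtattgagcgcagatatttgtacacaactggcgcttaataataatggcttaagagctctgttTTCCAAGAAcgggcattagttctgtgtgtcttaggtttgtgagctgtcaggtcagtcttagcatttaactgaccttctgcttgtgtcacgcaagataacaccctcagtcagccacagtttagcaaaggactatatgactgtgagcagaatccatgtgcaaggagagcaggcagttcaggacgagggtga
Capg: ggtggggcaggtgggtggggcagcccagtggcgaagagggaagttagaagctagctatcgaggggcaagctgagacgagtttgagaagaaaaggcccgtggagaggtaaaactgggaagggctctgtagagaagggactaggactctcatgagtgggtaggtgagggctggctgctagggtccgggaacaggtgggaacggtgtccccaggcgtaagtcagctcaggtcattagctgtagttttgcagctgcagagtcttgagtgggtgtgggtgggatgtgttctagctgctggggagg
Windows were found for 9 of the 10 genes (11 windows, Il2rb has none). They were searched on both strands for the Stat5 motif TTCNNNGAA, the forkhead motif GTAAACA, the AP-1 motif TGANTCA, the TATA box TATAAA and the CRE motif TGACGTCA. No match in 1 motif overlapped a match in another. The Stat5 motif was present in windows of 4 genes. It reads TTCCAAGAA at bases -139 to -131 from the start in the second Foxp3 window and TTCACAGAA at bases -99 to -91 from the start in Tnfrsf18 (chr4:156026072-156026371, plus strand). It reads TTCCCGGAA at bases -181 to -173 from the start in Tnfrsf1b (chr4:145246821-145247120, minus strand) and TTCCAAGAA at bases -136 to -128 from the start in the second Tnfrsf9 window (chr4:150927749-150928048, plus strand). Among all 32851 windows, 8.30% hold this motif. A TATA box stands in the first Foxp3 window, at bases -32 to -27 from the start, and in Ctla4 after the start, against 13.6% of all windows. The AP-1 motif was present in Tnfrsf9 alone among these genes (7.81% of all windows), and the forkhead and CRE motifs in none of them (3.65% and 1.79% of all windows). The Capg window held no match to any of the 5 motifs. A match is a run of letters and not a measured binding site.

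All values below are log2 expression levels of a probe set as the authors deposited them, in replicates 1 to 4 of a group, and a difference of 1 is a doubling. Differences come from a limma fit to all 12 arrays, with Benjamini-Hochberg adjustment over the 23521 probe sets, and a gene is said to have changed where its adjusted p is below 0.05. Levels of different probe sets are not comparable, so each gene is compared with itself only. The p-values and intervals measure the spread between these samples. In sorted bulk RNA, fewer cells of a type and less RNA per cell cannot be told apart.

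The arrays correlated with each other between 0.966 and 0.993 over all probe sets. The 8 T cell genes measured, among them Cd3e and Cd4, had a mean level of 11.72 to 11.78 in iTreg, 11.63 to 11.80 in e_iTreg and 11.67 to 11.75 in eTreg arrays, and none of the 8 changed in any comparison. Foxp3, the defining Treg marker, was above log2 11.8 on all 12 arrays. Arrays differed in other markers. The mean of 14 B cell genes was 6.39 in e_iTreg replicate 4 and 6.39 and 6.56 in eTreg replicates 3 and 4, against 7.10 to 7.97 in the other 9 arrays. Most arrays carried both Xist and Y-linked signal. In iTreg replicate 4 and eTreg replicate 3 the Y-linked mean was 4.84 and 4.94, against 6.54 or more elsewhere, and in e_iTreg replicate 4 Xist was 5.82, against 10.26 or more elsewhere. Results that rest on these arrays are also given without them.

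Foxp3 itself was not shown to change. The sort marker is not named, so whether the sort itself held Foxp3 or CD25 alike across the groups is not known. In iTreg it was at 11.84, 12.16, 12.26 and 12.43, in e_iTreg at 12.36, 12.19, 12.08 and 12.56, and in eTreg at 12.33, 12.50, 12.54 and 12.46. The eTreg arrays lay close together, 3 of the 4 iTreg arrays were below all of them, and the remaining iTreg array was inside their range. The means were 12.17 ± 0.25 in iTreg, 12.30 ± 0.21 in e_iTreg and 12.46 ± 0.09 in eTreg (SD, n = 4 each). The iTreg mean was 0.29 ± 0.13 (SE) below that of eTreg, with a 95% interval of -0.57 to -0.0057, which is 0.820-fold with bounds of 0.675 and 0.996. The unadjusted p of this limma contrast was 0.0461 and the adjusted p 0.218, and 11.4% of all probe sets were lower in iTreg at an unadjusted p under 0.05. The interval reached almost to a 1.5-fold decrease (log2 0.585), the nearest approach of any of the 8 genes that did not pass. The difference was -0.37 without iTreg replicate 4 and -0.17 without iTreg replicate 1, which held the lowest Foxp3 value of all. Foxp3 was not called under any of the 29 alternative settings. Between neighbouring groups in the order of means, iTreg minus e_iTreg was -0.13 (95% interval -0.41 to 0.15, limma adjusted p = 0.567) and e_iTreg minus eTreg -0.16 (-0.44 to 0.12, adjusted p = 0.765), so neither neighbour differed beyond the spread.

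Il2ra, which encodes CD25, was at 11.56, 11.85, 11.77 and 12.11 in iTreg, 11.70, 11.60, 12.02 and 12.06 in e_iTreg, and 11.72, 11.98, 12.02 and 12.05 in eTreg. The 3 groups overlapped throughout, and both the highest and the lowest Il2ra value belonged to iTreg. Relative to eTreg the iTreg mean differed by -0.12 ± 0.14 (SE, 95% interval -0.41 to 0.17, limma adjusted p = 0.718). Il2rb, the signalling chain shared with the interleukin-15 receptor, was at 12.90, 12.81, 13.05 and 13.13 in iTreg, 12.75, 12.73, 12.94 and 13.04 in e_iTreg, and 12.74, 12.89, 13.07 and 12.96 in eTreg. Again the groups overlapped, and the iTreg mean differed from eTreg by 0.06 ± 0.11 (SE, -0.17 to 0.29, limma adjusted p = 0.841). Against e_iTreg the differences of iTreg were -0.02 (-0.31 to 0.27) for Il2ra and 0.11 (-0.13 to 0.34) for Il2rb, and neither passed.

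Ctla4 was at 11.78, 11.63, 11.56 and 11.81 in iTreg, 11.75, 11.92, 11.64 and 12.08 in e_iTreg, and 11.72, 11.67, 12.10 and 11.69 in eTreg. In eTreg, replicate 3 stood well above the other arrays, which lay close together inside the range of the iTreg arrays. The iTreg mean differed from eTreg by -0.10 ± 0.12 (SE, 95% interval -0.36 to 0.16, limma adjusted p = 0.729), and by -0.0025 once eTreg replicate 3 was left out. Against e_iTreg the difference was -0.15 (-0.41 to 0.11, adjusted p = 0.443).

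None of the 4 TNF receptors was shown to change. Tnfrsf18, the gene of GITR, was at 10.98, 11.00, 10.96 and 11.19 in iTreg, 10.94, 11.08, 11.21 and 11.12 in e_iTreg, and 11.05, 11.15, 11.40 and 11.05 in eTreg. Of the 4 iTreg arrays 3 lay below every eTreg array, and replicate 4 lay among them. The mean of iTreg relative to eTreg was -0.13 ± 0.10 (SE, 95% interval -0.35 to 0.09, limma adjusted p = 0.562), and -0.05 once eTreg replicate 3, the highest array, was left out. Tnfrsf4, the gene of OX40, was at 11.61, 11.85, 11.81 and 12.02 in iTreg, 11.69, 11.93, 11.71 and 11.96 in e_iTreg, and 11.83, 11.86, 12.24 and 11.71 in eTreg. The iTreg range held all e_iTreg arrays, and the difference of iTreg from e_iTreg was 0.00038 (-0.27 to 0.27), against -0.09 (-0.36 to 0.18) from eTreg.

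Tnfrsf9, the gene of the activation-induced receptor 4-1BB, was at 10.56, 10.49, 10.50 and 10.78 in iTreg, 10.54, 10.74, 10.50 and 10.54 in e_iTreg, and 10.54, 10.56, 10.62 and 10.60 in eTreg. The 3 means were 10.58 each, with the narrowest intervals of the 9 genes. The 95% interval was -0.20 to 0.20 in iTreg minus eTreg, in iTreg minus e_iTreg and in e_iTreg minus eTreg. Tnfrsf1b, the gene of TNFR2, was at 10.16, 9.78, 10.05 and 10.18 in iTreg, 10.22, 10.24, 9.86 and 10.16 in e_iTreg, and 10.11, 9.86, 10.40 and 9.75 in eTreg. Its eTreg arrays were the most scattered, and its intervals were -0.29 to 0.32 in iTreg minus eTreg and -0.39 to 0.23 in iTreg minus e_iTreg.

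Capg was the exception. It was at 9.86, 10.05, 9.94 and 10.13 in iTreg, 9.41, 9.73, 9.43 and 9.29 in e_iTreg, and 9.68, 9.51, 9.26 and 9.30 in eTreg. All 4 iTreg arrays lay above all 8 others, and the e_iTreg and eTreg arrays overlapped each other. The means were 9.995 ± 0.12 in iTreg, 9.46 ± 0.19 in e_iTreg and 9.44 ± 0.19 in eTreg (SD, n = 4 each). Capg rose in iTreg relative to eTreg by 0.56 ± 0.12 (SE), or 1.47-fold with a 95% interval of 1.23 to 1.76 (limma adjusted p = 0.00843). Relative to e_iTreg it rose by 0.53 ± 0.12 (SE), or 1.45-fold with an interval of 1.21 to 1.73 (limma adjusted p = 0.0110). These comparisons share the iTreg arrays. In e_iTreg minus eTreg the difference was 0.03 (-0.23 to 0.28, limma adjusted p = 0.962). Groups that do not overlap, with iTreg higher, were found for 6.90% of all probe sets against eTreg and 7.57% against e_iTreg, and Capg was the only one of the 9 genes among them.

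**Figure D1:**
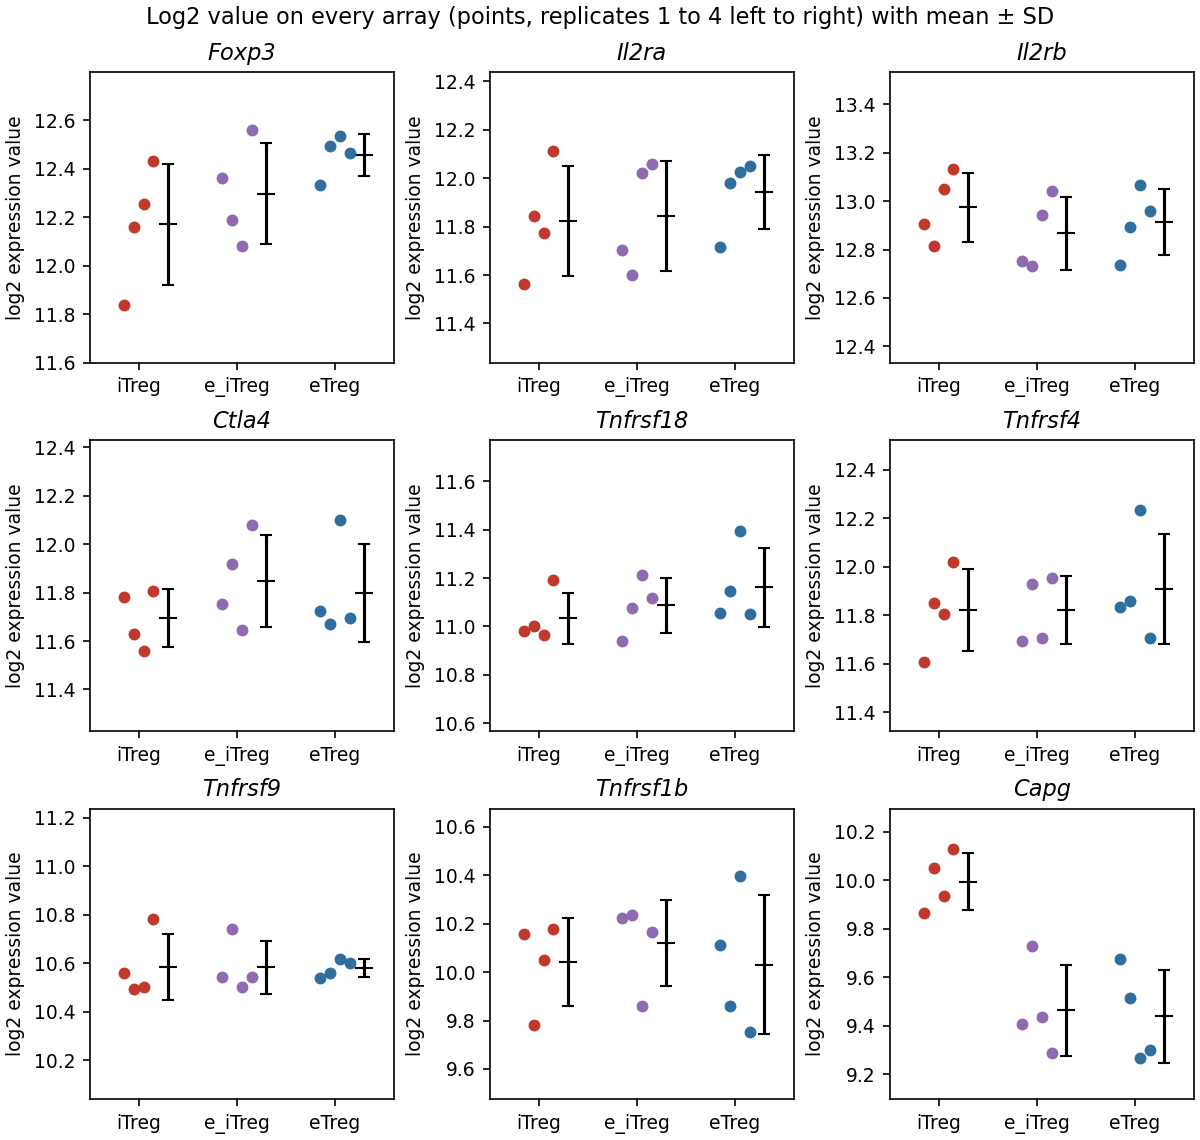
Log2 expression (vertical axis of each panel) of the 9 measured genes on each array, with the mean and SD of each group of 4 arrays. The iTreg points overlap the e_iTreg and eTreg points for 8 genes, and only for Capg do they stand above every other array.

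The call of Capg was lost in some fits that left out or adjusted for arrays differing in marker or sex signal. Leaving out 3 arrays also leaves fewer for the fit. Capg passed with each array left out in turn, and without iTreg replicate 4 it rose by 0.51 against eTreg (limma adjusted p = 0.0259). Macrophages and dendritic cells are known for high levels of CapG. The mean of 15 monocyte, macrophage and dendritic cell genes was 7.16 to 8.12 in iTreg arrays, 6.56 to 7.15 in e_iTreg arrays and 6.59 to 7.16 in eTreg arrays. Of these 15 genes, Cst3 and Itgam rose in iTreg relative to eTreg and 13 did not pass, Csf1r and Lyz2 among them, and relative to e_iTreg Cst3, Itgam and Ly6c2 rose and Siglech fell. Of 13 CD8 T and NK cell genes 4 rose relative to each group, the granule genes Nkg7, Gzma, Gzmb (by 4.18 relative to eTreg) and Gzmk. The other 9 did not pass, Cd8a, Cd8b1, Ncr1, Klrb1c, Klrd1 and Klrk1 among them. The list means, which include the 4 that rose, were 7.39 to 7.85 in iTreg, 6.56 to 7.25 in e_iTreg and 6.52 to 7.25 in eTreg. Of 10 plasma cell genes only Prdm1 rose, again relative to each group. The list mean was 9.46 in iTreg replicate 4 and 7.72 to 8.06 in the other iTreg arrays, 7.38 to 7.73 in e_iTreg and 7.30 to 7.66 in eTreg. No B cell gene of 14 rose, and H2-Ob fell, in both comparisons. The erythroid and platelet list (4 genes measured) held no gene past the threshold, with means between 5.68 and 6.07 in all groups. Array levels have no true 0, so no marker can be called absent. The 3 arrays with the least B cell signal (e_iTreg replicate 4, eTreg replicates 3 and 4) also had the lowest Capg of their groups, and without them the rise was 0.40 against eTreg (95% interval 0.10 to 0.70, limma adjusted p = 0.167) and 0.47 against e_iTreg (adjusted p = 0.0414). With the mean of the B cell, plasma cell and myeloid lists as a covariate it was 0.39 against eTreg (0.14 to 0.64, adjusted p = 0.0806) and 0.41 against e_iTreg (adjusted p = 0.0382). Without the 3 arrays that carried the signal of 1 sex it was 0.45 (adjusted p = 0.0824) and 0.43 (adjusted p = 0.0995). The difference was thus above 0 in each of these fits while the call against eTreg was lost in all 3 and that against e_iTreg in 1, and the part of other cells in it was not tested further.

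Counted over the genes, 1 of 9 (11.1%) passed in iTreg minus eTreg, where 9.99% of all probe sets passed (5.36% higher and 4.63% lower in iTreg). In iTreg minus e_iTreg it was also 1 of 9, where 11.2% passed (6.49% higher and 4.75% lower). The shares of these genes that changed were therefore near those of all probe sets. In e_iTreg minus eTreg limma called none of the 9 genes and 0% of all probe sets, and 0 of the 9 genes had an unadjusted p under 0.05, against 7.01% of all probe sets. What the data bound is the size of any change in the probe set level. The whole 95% interval lay within 1.5-fold in either direction for 8 of 9 genes in iTreg minus eTreg, 8 of 9 in iTreg minus e_iTreg and 9 of 9 in e_iTreg minus eTreg. Among all probe sets the shares were 79.9%, 77.7% and 90.1%, so intervals this narrow were common on these arrays. Among the brighter probe sets, those above the median level, 71.0% lay within 1.5-fold in iTreg minus eTreg and 22.7% were called, and all 9 genes belong to that part.

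Outermost bounds of the genes that did not pass were 0.675-fold and 1.25-fold in iTreg minus eTreg, 0.750-fold and 1.27-fold in iTreg minus e_iTreg, and 0.737-fold and 1.32-fold in e_iTreg minus eTreg. The lower bound belonged to Foxp3 in the first and last of these and to Ctla4 in the second. The median difference of the 9 genes was -0.09 in iTreg minus eTreg, against -0.01 over all probe sets. It was -0.02 against -0.07 in iTreg minus e_iTreg and -0.05 against 0.03 in e_iTreg minus eTreg. The median size of a difference, without its sign, was 0.103 for the 9 genes and 0.124 for all probe sets in iTreg minus eTreg, and 0.0796 and 0.159 in iTreg minus e_iTreg. The median SE was 0.122 for these genes and 0.121 for all.

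**Figure D2:**
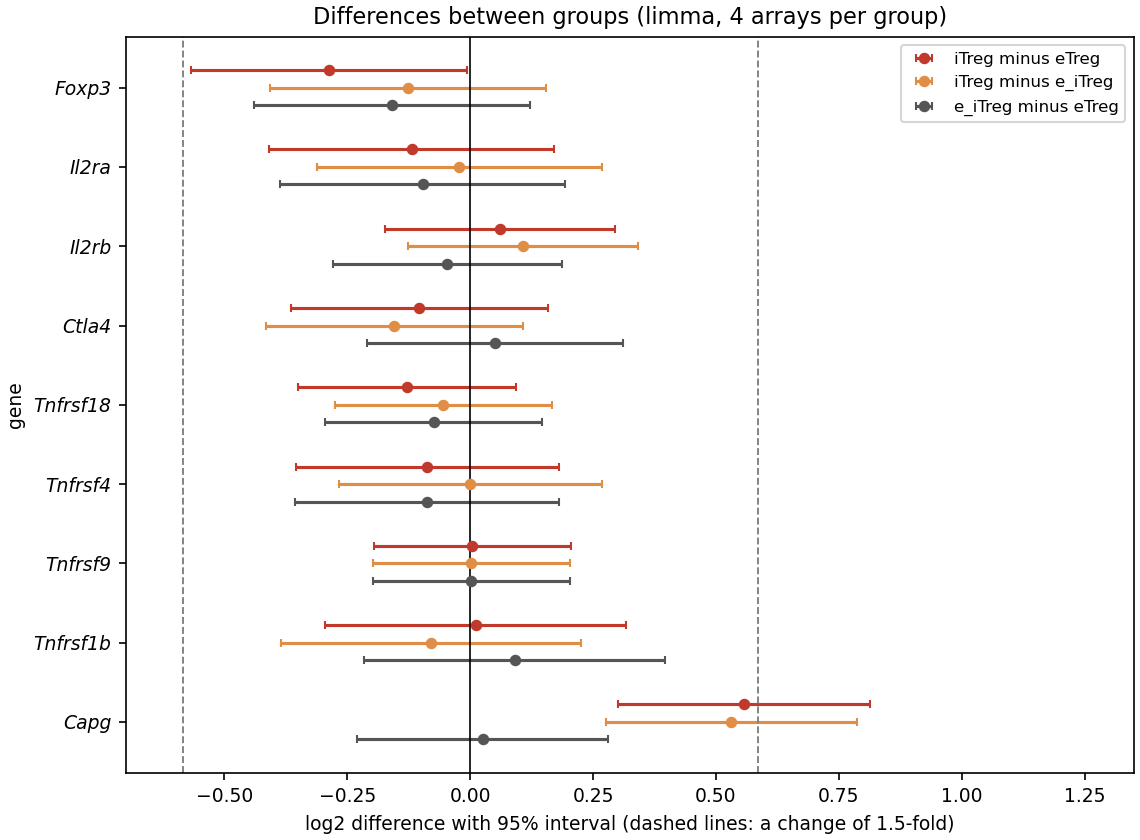
Difference in log2 expression with its 95% interval (horizontal axis) for each of the 9 genes in 3 comparisons, 4 arrays per group. Dashed lines mark a change of 1.5-fold, and only the 2 Capg comparisons with iTreg cross one of them.

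Single arrays moved several of these genes at once. In iTreg replicate 4 all 9 genes were above their mean over the 12 arrays, by 0.19 on average, and this array held the highest Il2ra, Il2rb, Tnfrsf9 and Capg values. In eTreg replicate 3, 8 of the 9 were above their mean, by 0.17 on average, and this array held the highest Ctla4, Tnfrsf18, Tnfrsf4 and Tnfrsf1b. Only Capg was below its mean there, with the lowest value of all arrays. The other 10 arrays averaged between -0.09 and 0.08. Both arrays are among the 3 with the signal of 1 sex. Of the 9 genes only Foxp3 lies on the X chromosome, and its highest value was in neither array but in e_iTreg replicate 4, also among these 3. The myeloid list mean was 8.12 and the plasma cell list mean 9.46 in iTreg replicate 4, each the highest of all arrays. The part of these differences in the levels of the 9 genes was not tested.

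**Figure D3:**
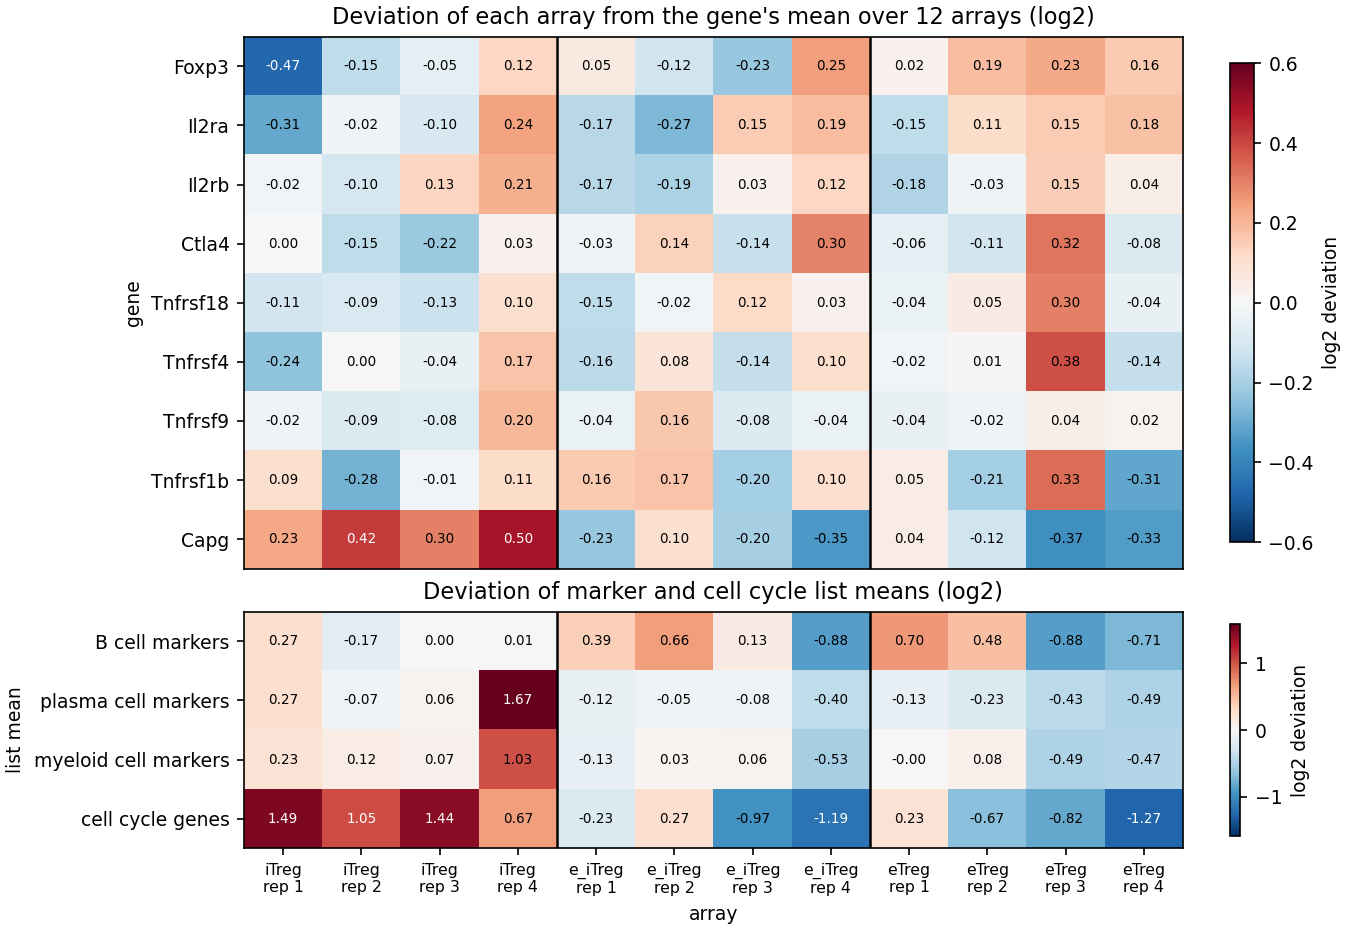
Heat map of the deviation of each of the 9 genes (upper panel) and of the B cell, plasma cell, myeloid and cell cycle list means (lower panel) from their own mean over the 12 arrays, in log2 units printed in each cell, with arrays across and a colour scale for each panel. All 9 genes are above their mean in iTreg replicate 4 and 8 of 9 in eTreg replicate 3, and the plasma cell and myeloid lists peak in iTreg replicate 4.

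Genes that act with the receptors were counted next, from lists chosen by known function. Their counts relative to e_iTreg stand against 11.2% of all probe sets called and 25.2% of those above the median level. Most genes named below were picked for a small p, so arrays that do not overlap add no separate support. With iTreg higher, 6.90% of all probe sets did not overlap eTreg, and the share with iTreg lower is not given here. In the interleukin-2 receptor pathway, 14 of 15 listed genes were measured. Relative to eTreg, 1 rose and 4 fell in iTreg, and 9 did not pass. Of all probe sets 9.99% were called, and 22.7% of those above the median level. Socs2, a feedback inhibitor of cytokine signalling, was at 8.02, 8.20, 7.50 and 8.41 in iTreg and at 6.85, 6.99, 7.22 and 7.26 in eTreg, a rise of 0.95 (limma adjusted p = 0.00502). No iTreg array overlapped the eTreg arrays. Bcl2, an inhibitor of cell death, fell by 0.86 (adjusted p = 0.00383), Stat5a by 0.65 (adjusted p = 0.0267), the feedback inhibitor Cish by 0.53 (adjusted p = 0.0259) and the receptor-bound kinase Jak1 by 0.31 (adjusted p = 0.0479). These 2 feedback inhibitors thus moved in opposite directions, while Socs1 (-0.03) and Socs3 (-0.47, limma adjusted p = 0.168) did not pass. Relative to e_iTreg, Socs2 and the adaptor gene Grb2 rose and Bcl2 fell in iTreg, and without either set of 3 arrays named above 1 of the 14 passed. The count of 5 against eTreg was 2 with the marker covariate, 3 without the arrays of 1 sex and 1 without the arrays low in B cell markers. It was 2 without eTreg replicate 2 or 3 or iTreg replicate 1, and 3 without iTreg replicate 2 or 3.

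The next list held 7 receptor chains, most of which pair with the common gamma chain. Crlf2 and Il13ra1, both on it, do not pair with that chain. Of all probe sets 9.99% were called against eTreg and 11.2% against e_iTreg. Of the 7 chains, 1 (Il7r) changed relative to each group. This interleukin-7 receptor gene, low on most Treg, was at 10.30, 10.36, 10.50 and 10.47 in iTreg and at 11.02, 11.06, 10.86 and 11.55 in eTreg. The groups did not overlap, and Il7r fell by 0.72 (limma adjusted p = 0.00311). It fell by 0.66 relative to e_iTreg (adjusted p = 0.00484). Il4ra was the next by p, at -0.48 relative to eTreg (adjusted p = 0.0860), then Il21r, the interleukin-21 receptor gene, at -0.24 (adjusted p = 0.315), and neither passed. The count was 2 in place of 1 in both comparisons without iTreg replicate 4, and 2 against eTreg without the arrays of 1 sex.

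Among regulators and DNA-binding partners of Foxp3, 28 of 30 were measured, and relative to eTreg 5 rose, 8 fell and 15 did not pass in iTreg, where 5.36% of all probe sets rose and 4.63% fell. Among the probe sets above the median level 22.7% were called. Ikzf4 encodes Eos, a partner of Foxp3 in gene repression. It was at 8.85, 9.09, 9.15 and 8.85 in iTreg and at 9.85, 10.03, 10.19 and 10.03 in eTreg, a fall of 1.04 (limma adjusted p = 0.000750). Bach2, a repressor of effector T cell genes, fell by 1.02 (adjusted p = 0.00125), and Foxp1, a forkhead factor of resting T cells, by 0.91 (adjusted p = 0.000622). For all 3 of these genes, named for their small p, the iTreg arrays lay below every eTreg and e_iTreg array. The other falls were those of Rel, Lef1, Satb1, Tet3 and Foxp4. The rises were Uhrf1 (1.66), Ezh2 (0.90), Dnmt1 (0.89), Runx3 (0.87) and Cbfb (0.40).

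Uhrf1, Dnmt1 and Ezh2, which maintain DNA and histone methylation, are known to be high in dividing cells. Of 29 cell cycle genes measured, 28 rose in iTreg in both comparisons. Their mean was 9.11 to 9.93 in iTreg arrays, 7.25 to 8.71 in e_iTreg arrays and 7.16 to 8.67 in eTreg arrays, and the part of cell division in the values above was not tested. Relative to e_iTreg, 4 of the 28 Foxp3 regulators rose in iTreg (Ezh2, Dnmt1, Uhrf1 and Runx3) and 6 fell (Ikzf4, Bach2, Foxp1, Rel, Foxp4 and Foxo1). The count of 13 against eTreg was 7 with the marker covariate and 5 without the arrays low in B cell markers.

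Of 24 other TNF receptors, none rose and 3 fell in iTreg relative to eTreg, a share near the 9.99% of all probe sets called. They were Tnfrsf25 (-0.56, limma adjusted p = 0.00534), the gene of death receptor 3, Cd27 (-0.50, adjusted p = 0.0277), a costimulatory receptor of resting T cells, and Fas (-0.56, adjusted p = 0.0479), a death receptor. Relative to e_iTreg, Tnfrsf25 fell by 0.40 and Tnfrsf10b by 0.74. Against eTreg 1 gene passed with the marker covariate and none without the arrays low in B cell markers, and leaving out eTreg replicate 2 or iTreg replicate 1 or 3 also brought the count to 1. Against e_iTreg the count was 0 with the marker covariate and without either set of 3 arrays. It was also 0 with the replicate number as a block and when all rows of the table were tested. Without e_iTreg replicate 1, 2 or 4 or iTreg replicate 1 it was 0. Without eTreg replicate 1 or 2 or iTreg replicate 2, 3 or 4 it was 1. With the sex signal as a covariate it was 0, but that covariate marks e_iTreg replicate 4 alone and equals leaving this array out.

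Limma called none of the 5 ligands of the 4 member receptors in any comparison. The smallest p belonged to Tnfsf9, the ligand of 4-1BB, at 0.37 in iTreg minus eTreg (adjusted p = 0.151), then to Lta at -0.28 (adjusted p = 0.252) and to Tnfsf4, the ligand of OX40, at -0.42 (adjusted p = 0.331).

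Of 12 genes of TRAF and IAP proteins and their partners at TNF receptors, 10 were measured. Relative to eTreg 3 changed, against 9.99% of all probe sets and 22.7% of those above the median level. Traf1 was the only TRAF or IAP gene among the 3. Traf1, an adaptor induced by NF-kappa-B that binds TNFR2, 4-1BB and other TNF receptors, was at 10.36, 10.45, 10.22 and 10.15 in iTreg and at 10.82, 10.85, 10.86 and 10.81 in eTreg. The groups lay well apart, and Traf1 fell by 0.54 (limma adjusted p = 0.00201) relative to eTreg and by 0.39 (adjusted p = 0.0108) relative to e_iTreg. Map3k14, the kinase of the non-canonical NF-kappa-B pathway, fell by 0.75 (adjusted p = 0.00482), and Tradd, the adaptor of TNF receptor 1, rose by 0.53 (adjusted p = 0.0136). Both also passed relative to e_iTreg, in the same directions. Of these 3 genes 2 passed with the marker covariate or without the arrays of 1 sex, and 1 without the arrays low in B cell markers. Against e_iTreg 2 passed with the covariate and 1 without either set of 3 arrays.

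In the list of genes around CTLA-4, its ligands, its relatives and its trafficking machinery, 5 of 12 rose and 1 fell relative to eTreg, where 5.36% of all probe sets rose and 4.63% fell, and 22.7% of those above the median level were called. Icos, a costimulatory receptor related to CTLA-4, was at 10.29, 9.78, 9.999 and 10.37 in iTreg and at 9.52, 9.25, 8.89 and 8.65 in eTreg, a rise of 1.03 (limma adjusted p = 0.00629). Cd86, a CTLA-4 ligand best known on antigen-presenting cells, was at 8.66, 8.66, 8.72 and 8.58 in iTreg and at 9.34, 9.73, 9.79 and 9.17 in eTreg, a fall of 0.85 (adjusted p = 0.00249). Neither gene's iTreg arrays overlapped the eTreg arrays. The other CTLA-4 ligand gene, Cd80, rose by 0.69 (adjusted p = 0.0297), so the 2 ligand genes moved in opposite directions while Ctla4 was not shown to change. The clathrin adaptor genes Ap1m1 (0.44, adjusted p = 0.0150) and Ap2m1 (0.44, adjusted p = 0.0357) and the recycling gene Rab11a (0.37, adjusted p = 0.0264) also rose. Relative to e_iTreg 4 rose (Icos, Cd80, Ap1m1 and Ap2m1) and Cd86 fell, by 1.22. The count of 6 against eTreg was 2 with the marker covariate and 1 without either set of 3 arrays. It was 2 without eTreg replicate 3 or iTreg replicate 1 and 3 without eTreg replicate 2 or 4 or iTreg replicate 4. Against e_iTreg the count of 5 was 3 without e_iTreg replicate 1 or 4 or iTreg replicate 1 or 4.

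The list of 17 gelsolin family and actin-capping genes other than Capg held some below the median level, such as Capza3. Of all probe sets 9.99% were called relative to eTreg, 5.36% higher and 4.63% lower, and of those above the median level 22.7%. Of the 17 genes, 4 rose and none fell relative to eTreg. They were Tmod3 (0.44, limma adjusted p = 0.0149), which caps slow-growing filament ends, the capping protein subunits Capza1 (0.36, adjusted p = 0.0157) and Capzb (0.41, adjusted p = 0.0250), and the filament-severing Cfl1 (0.35, adjusted p = 0.0469). Relative to e_iTreg 4 rose (Capza1, Capza2, Tmod3 and Cfl1). Relative to eTreg these 4 genes rose by 0.35 to 0.44, against 0.56 for Capg, and whether they differ from Capg was not tested. The calls were lost under several settings. With a fold of at least 1.5 required as well, none of the 17 passed in either comparison. Against eTreg no gene passed with the marker covariate, without the arrays of 1 sex or without those low in B cell markers. None passed without eTreg replicate 3, 1 without eTreg replicate 2 or 4, and 2 without iTreg replicate 1, 3 or 4. Against e_iTreg 1 passed with the covariate or without either set of 3 arrays, 1 without e_iTreg replicate 4 or iTreg replicate 1 or 4, and 2 without e_iTreg replicate 1 or iTreg replicate 3, while 7 passed at an adjusted p of 0.1. In e_iTreg minus eTreg limma called no gene of any of the 8 lists.

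**Figure D4:**
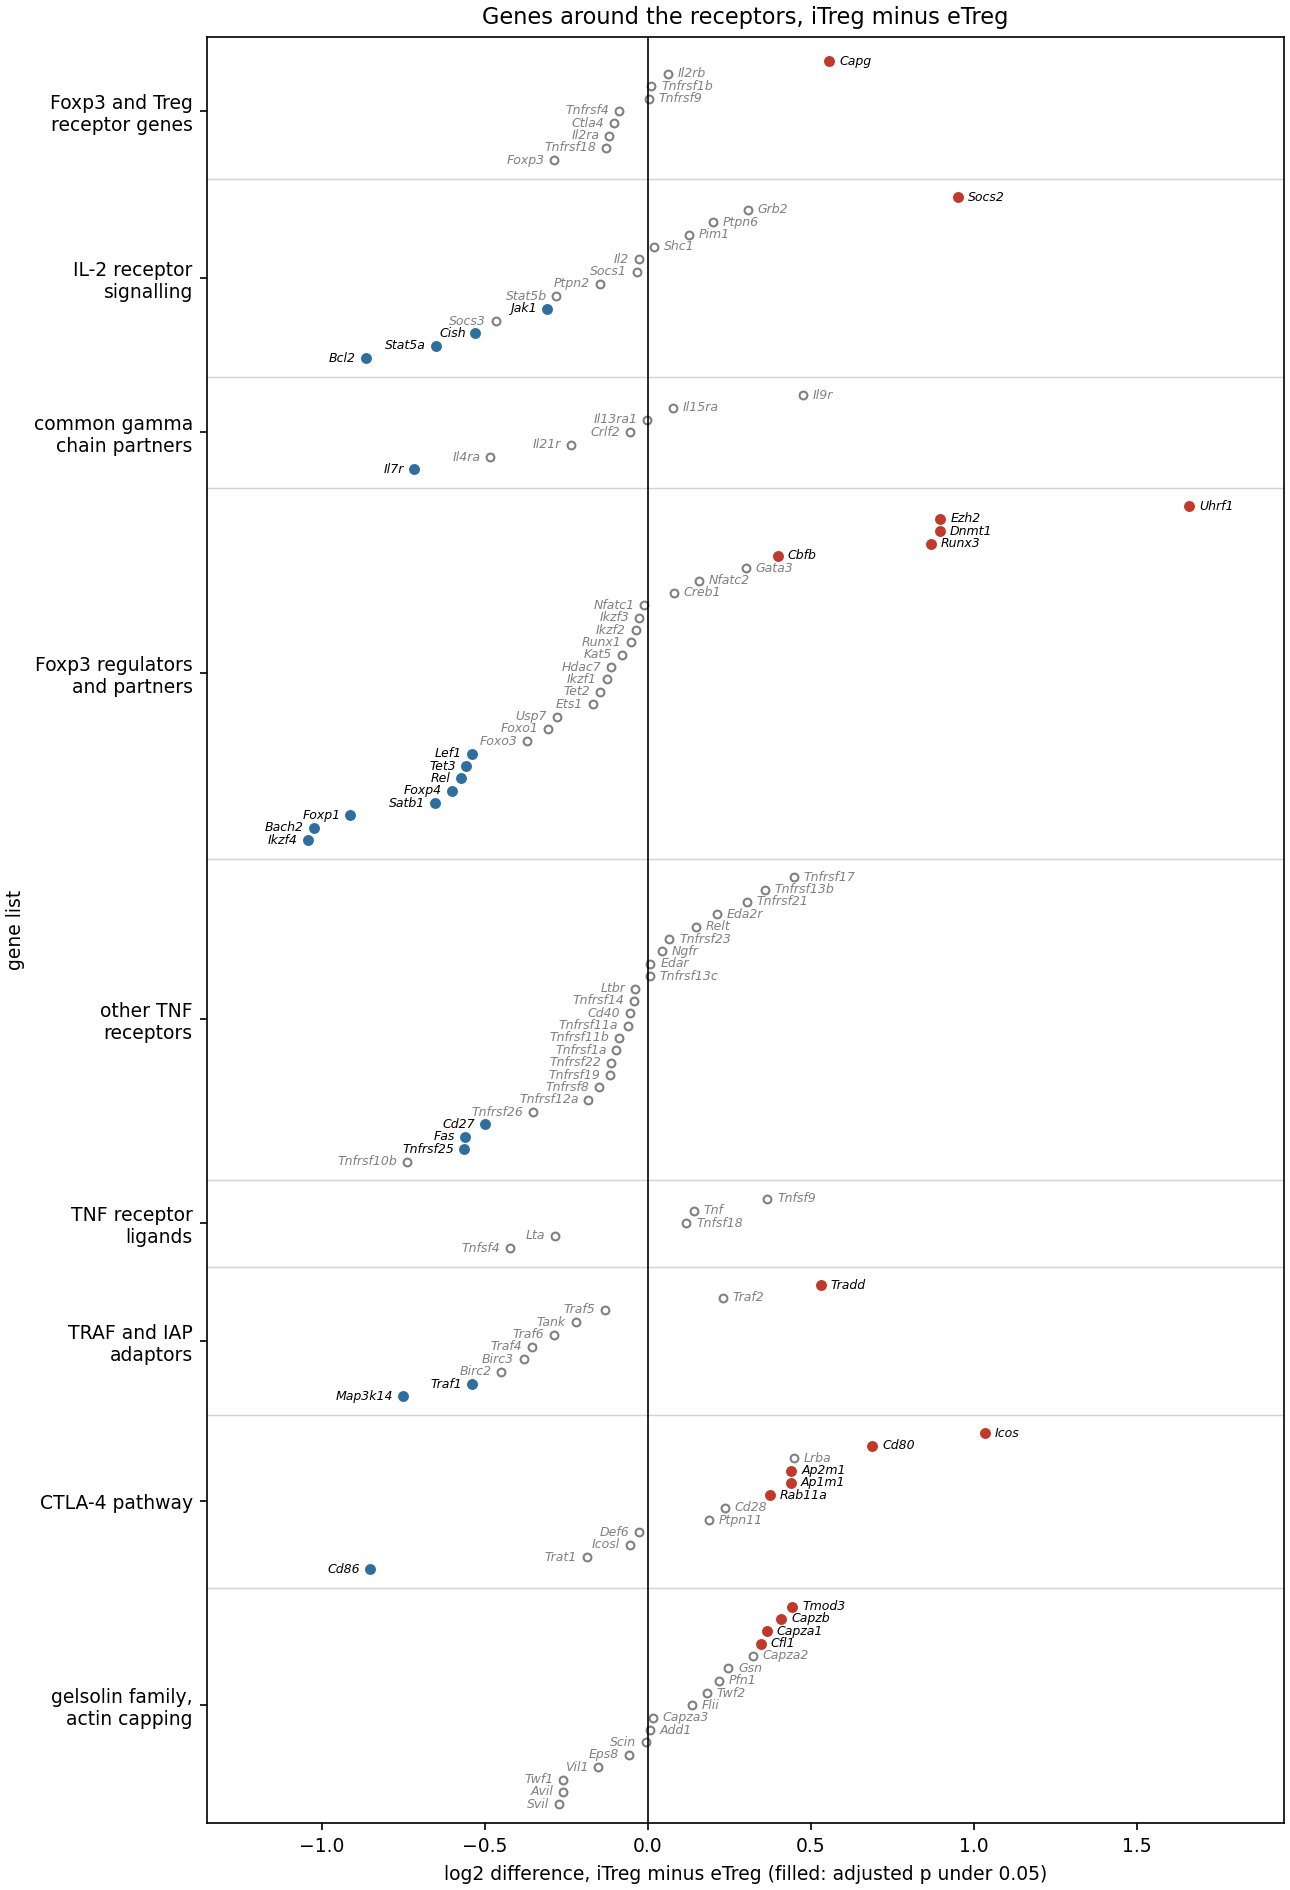
Difference in log2 expression between iTreg and eTreg (horizontal axis) of every measured gene in the 8 lists of related genes and of the 9 measured genes, 1 block per list and 1 point per gene, with genes past the threshold filled in red (higher in iTreg) or blue (lower). Both directions occur among the Foxp3 regulators, and none of the 5 ligands passes. The block labelled common gamma chain partners also holds Crlf2 and Il13ra1, which do not pair with that chain. The block labelled TRAF and IAP adaptors also holds genes of neither family, such as Tradd and Map3k14.

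The genes whose pattern over the 12 arrays was most like that of Foxp3 and Capg were found by scaling each gene to an SD of 1 and taking the root mean square difference, among 13511 genes. For Foxp3 the nearest 5 were Nlrc5 (0.441 SD), Bsdc1 (0.458), Zfp628 (0.460), H2-Q4 (0.467) and Uck2 (0.475), against a median of 1.37 over all genes. In iTreg minus eTreg these 5 genes differed by -0.35 to -0.23. For Capg the nearest were Anxa4 (0.162 SD), 2610524H06Rik (0.211), Gzmb (0.214), B4galnt4 (0.225) and Ssr2 (0.248), against a median of 1.45. The neighbours of Capg were closer to it than those of Foxp3 were to Foxp3. Their differences in iTreg minus eTreg covered a wide span, 0.56 for Ssr2 and 4.18 for Gzmb, the cytotoxic protease granzyme B, against 0.56 for Capg. The arrays share their groups and their RNA, so likeness over 12 arrays is a description.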

How the data were processed

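Expression was measured in Treg sorted from spleen, in 12 samples of 4 biological replicates per group, and 2 ng of RNA per sample were amplified, per the labels' protocols. The deposited values are log2 levels per probe set, which the authors made with oligo and RMA (background correction, normalization between arrays and summary of probes), per the submitters' processing notes. The sources used here give no versions or settings, and precision is limited by the number of arrays. The table held 41345 rows. Of these 23521 carried 1 gene symbol and were tested, 1814 carried several and 16010 none, and 23328 were matched by gene number to RefSeq GRCm38.p6. Of the 10 members 9 had 1 probe set of their own, and no filter on low values was applied.

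A linear model of the 3 groups was fitted to the tested rows by the limma functions lmFit and eBayes (version 3.58.1, R 4.3.3) with 9 residual and 5.78 prior degrees of freedom, two-sided. It was tested on simulated data. Alternatives covered normalization, filters on dim probe sets, rows tested, error model, array weights, samples in the fit, a replicate block, thresholds, covariates and leaving out each array. The members and gene lists were chosen with earlier results of these data known. Text names all members, the 3 genes of smallest p per list in iTreg minus eTreg, and every gene past the threshold where 5 or fewer passed. Other list genes, the marker genes, and the array sets left out were chosen after their values were seen. DTx was assigned by the series design, since the protocol wording alone would give it to all samples.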

Additional observations from a re-analysis of the deposited data

Results flagged for a closer look

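Among 48 sets of 4 arrays examined (the 9 genes and 7 marker lists in each group), 3 had 1 array far from the others by Dixon's test at the 95% level. Chance gives this in about 1 in 20 such sets, so 3 of 48 is close to what chance gives. Ctla4 in eTreg replicate 3 was at 12.10, while the other eTreg arrays lay between 11.67 and 11.72. Tnfrsf18 in iTreg replicate 4 was at 11.19, while the other iTreg arrays lay between 10.96 and 11.00. The mean of the monocyte, macrophage and dendritic cell markers in iTreg replicate 4 was 8.12, while the other iTreg arrays lay between 7.16 and 7.32.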

How the results depend on the processing

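Each result was recomputed under 29 alternatives (27 for Tnfsf4), and no called difference changed sign. The sex covariate marks e_iTreg replicate 4 alone, so that alternative is the same fit as leaving this array out and adds no separate check. The count of genes past the threshold in iTreg minus eTreg, 1 in the fit reported (Capg), was 0 when a fold of at least 1.5 was also required, 0 with the other-cell marker mean as a covariate, 0 without the 3 arrays of 1 sex and 0 without the 3 arrays low in B cell markers. In iTreg minus e_iTreg it was 0 with the fold requirement and 0 without the 3 arrays of 1 sex. The fold requirement removes Capg by its size. The exclusions leave fewer arrays, but the Capg difference against eTreg was also smaller, at 0.45 and 0.40 in place of 0.56. With the marker covariate, where no array was left out, it was 0.39. The cause of these lost calls was not tested. Leaving out each array in turn gave 1 to 1, 1 to 1 and 0 to 0 genes in iTreg minus eTreg, iTreg minus e_iTreg and e_iTreg minus eTreg. Capg then differed by 0.50 to 0.64 from eTreg and 0.47 to 0.62 from e_iTreg and passed each time. No other member passed under any alternative, and in iTreg minus eTreg the sign of Tnfrsf4 turned under 1 alternative and those of Tnfrsf9 and Tnfrsf1b under 6 each. Genes with the interval inside 1.5-fold numbered 7 to 8, 8 to 8 and 9 to 9 without an array. With a bound of 1.3-fold they were 6 in iTreg minus eTreg, 5 in iTreg minus e_iTreg and 6 in e_iTreg minus eTreg, and with 2-fold 9 in each. In iTreg minus eTreg 7 were inside 1.5-fold after quantile normalization, median centring, the marker covariate or either exclusion of 3 arrays.

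Groups share replicate numbers in the labels. Same-numbered arrays correlated between -0.15 and 0.24 in their deviations from the group means, so the numbers were not taken to pair the samples. With the replicate number as a block, 2225, 2394 and 0 probe sets passed, against 2349, 2643 and 0 without it, 1 gene, 1 gene and 0 genes of the 9 passed as before, and Capg had limma adjusted p-values of 0.0123 and 0.0155.

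Over all probe sets 859 passed in iTreg minus eTreg with the marker covariate, 1164 without the arrays of 1 sex and 400 without those low in B cell markers. Over all alternatives the counts against eTreg were 1 to 6 for the interleukin-2 pathway, 5 to 15 for the Foxp3 regulators and 0 to 6 for other TNF receptors. They were 1 to 5 for the TRAF and IAP genes with their partners, 1 to 7 around CTLA-4 and 0 to 4 for the gelsolin list. Precision is set by the 4 arrays per group.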
